A study of Mus musculus with 8 samples.

Results

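The 6 genes followed here in the GD3.5 mouse uterus were Msln, Upk1b, Upk3b, Lrrn4, Wt1 and Bnc1. They were taken by symbol as mesothelial and serosal genes, and all 6 were found among the 24963 genes of the deposited table. Whole uterine tissue came from 4 Nr2f2 f/f and 4 Nr2f2 d/d samples at gestation day 3.5, from C57B6/J females mated, at 8 weeks of age by the labels, to vasectomized males, so that no embryos were present. By the study's methods, all 8 samples carried the floxed Nr2f2 allele on both chromosomes, including the controls that the labels call WT. The Nr2f2 d/d mice also carried Cre knocked into 1 Pgr allele, which deletes Nr2f2 in Pgr-expressing cells and leaves it in cells that have never used the Pgr gene. The groups therefore differ in the Cre knock-in at Pgr as well as in Nr2f2, and no sample with Cre alone was analysed here. Below, the Nr2f2 f/f samples are called controls and the Nr2f2 d/d samples mutants. The labels call the samples replicates without saying that each is a separate animal, so p-values measure the spread between these samples.

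The mesothelium is a flat epithelial sheet of mesodermal origin that covers the peritoneal organs. On the uterus it forms the outer face of the serosa, next to the longitudinal muscle of the myometrium. It carries keratins and surface glycoproteins of an epithelium together with transcription factors of the mesoderm, and Wt1 is the classical factor of this lineage in development. Of the 6 genes, Msln, Upk1b, Upk3b and Lrrn4 encode proteins of the cell surface, and Wt1 and Bnc1 encode zinc finger proteins of the nucleus. Wt1 is also present in uterine stroma and smooth muscle, and Bnc1 in basal keratinocytes and germ cells.

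Values are FPKM, fragment numbers divided by gene length and by library size. Library totals, recovered from the FPKM of short microRNA genes, were 61450000 to 77850000 fragments in the controls and 61700000 to 92600000 in the mutants. At these totals Bnc1, the scarcest of the 6, held about 291 to 1184 fragments per library and Wt1, the most abundant, about 11137 to 19941. Counting error was thus at most 5.87% of a value, less than the spread between samples. Nr2f2 was 24.1 ± 1.80 FPKM in the controls and 8.93 ± 1.36 in the mutants (SD, n = 4 each), and every mutant library lay below every control library. Groups were compared with limma on log2(FPKM + 0.5) over the 14323 genes whose mean reached 0.5 FPKM, with Benjamini-Hochberg adjustment over all of them. All 6 genes passed that filter.

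In the mutant uterus, 5 of the 6 genes had higher means than in the controls, by 1.28-fold to 1.98-fold, and Wt1 had a lower mean, 0.794 of the control level. Only Msln passed an adjusted p of 0.05 (0.0398 from limma), so Msln rose and the other 5 did not pass. Without the filter on low values the adjusted p of Msln was 0.0536, which ends that call. Among all genes tested, 2.62% passed this threshold, 1.09% with a higher and 1.53% with a lower level in the mutants. At the threshold of the study's methods, an unadjusted p under 0.05 with a fold change of at least 1.4, Msln, Upk3b and Bnc1 were higher, 3 of 6 genes, and none of the 6 was lower. The fold was taken from log2(FPKM + 0.5), on which Lrrn4 (0.46, unadjusted p = 0.0138) lay just under it, although its ratio of means was 1.42. With 0.1 added, under median-ratio scaling and under quantile normalization its log2 fold change was 0.49, 0.49 and 0.50, and it met the threshold. Without control replicate 3, Upk3b had 0.483 and fell just under that fold. With 1 library left out, 2 to 4 of the 6 genes met the threshold, beside 1080 to 1444 of all genes tested. With all libraries, 8.8% of all genes tested met that threshold, 4.7% upward and 4.1% downward, and 21.2% had an unadjusted p under 0.05 at any fold. For Msln, Upk3b and Bnc1 every mutant library also lay above every control library, a full separation that 5.49% of all genes tested showed upward and 9.91% downward. The median log2 fold change of the 6 genes was 0.56, and that of all genes tested was -0.02. In bulk tissue, more or fewer cells of a type and more or less RNA per cell cannot be told apart, and neither can the cell type that a transcript came from.

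Msln encodes mesothelin, a lipid-anchored surface protein of mesothelial cells that binds the mucin MUC16. Its locus is chr17:25748613-25754378, minus strand, in mm10 as annotated by GENCODE vM21, and no other annotated gene overlaps it. Its level was 12.2, 9.84, 7.0 and 10.1 FPKM in control replicates 1 to 4 and 17.4, 17.7, 18.1 and 15.1 in mutant replicates 1 to 4. The lowest mutant value was above the highest control value, and the mutant values were the more tightly grouped. The means were 9.78 ± 2.13 in the controls and 17.1 ± 1.38 in the mutants (SD, n = 4 each), a 1.75-fold difference. The log2 fold change was 0.80 (95% interval 0.45 to 1.15, adjusted p = 0.0398 from limma; exact permutation p = 0.0286, two-sided, the smallest that 4 against 4 allows). With 1 library left out, the log2 fold change was 0.65 to 0.91. The adjusted p from limma then stayed under 0.05 only without control replicate 3 (0.0434). It was 0.0547, 0.0633 and 0.0929 without control replicates 1, 2 and 4, and 0.107, 0.123, 0.0766 and 0.0519 without mutant replicates 1 to 4.

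Upk3b and Upk1b are named for the uroplakins, the membrane proteins that form the plaques of the bladder lining. Upk3b encodes a protein with a single membrane span that is a standard marker of mesothelium, and Upk1b encodes a tetraspanin. Upk3b (chr5:136038496-136046487, plus strand) was at 26.4, 20.6, 13.3 and 19.2 FPKM in the 4 control libraries and at 30.8, 35.3, 31.1 and 26.5 in the 4 mutant libraries. The groups did not overlap, but the highest control and the lowest mutant library nearly met. The means were 19.9 ± 5.35 in the controls and 30.9 ± 3.60 in the mutants (SD, n = 4 each), 1.56-fold apart. The log2 fold change of 0.66 (95% interval 0.22 to 1.09) had an unadjusted p of 0.00833 and an adjusted p of 0.106 from limma (exact permutation p = 0.0286).

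Upk1b (chr16:38773184-38800328, minus strand) was at 8.84, 8.12, 8.14 and 7.59 FPKM in the controls and at 10.7, 12.2, 10.4 and 8.55 in the mutants. In the mutants, 3 libraries lay above all control libraries, and replicate 4 lay within their range. With a mean of 8.17 ± 0.511 FPKM in the controls and 10.5 ± 1.51 in the mutants (SD, n = 4 each), it had the smallest difference of the 5 genes with higher means, 1.28-fold. The log2 fold change was 0.33 (95% interval 0.08 to 0.58, adjusted p = 0.141 from limma, exact permutation p = 0.0571). Under median-ratio scaling and under quantile normalization the groups of Upk1b parted fully (exact permutation p = 0.0286 for each). Its adjusted p from limma was then 0.110 and 0.105, in that order. The share of all genes that parted under these scalings was not computed.

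Lrrn4 encodes a membrane protein with leucine-rich repeats of a family first known from neurons, and is used as a marker of mesothelial cells. Its locus is chr2:132868305-132880891, minus strand. Its level was 6.43, 4.99, 4.56 and 4.80 FPKM in the controls and 7.24, 9.44, 6.17 and 6.70 in the mutants. Mutant replicate 2 was the highest, and replicate 3 lay below control replicate 1, so the groups overlapped. The means were 5.19 ± 0.842 and 7.39 ± 1.44 FPKM (SD, n = 4 each) in that order, 1.42-fold apart, with a log2 fold change of 0.46 (95% interval 0.12 to 0.81, adjusted p = 0.133 from limma, exact permutation p = 0.0571).

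**Figure D1:**
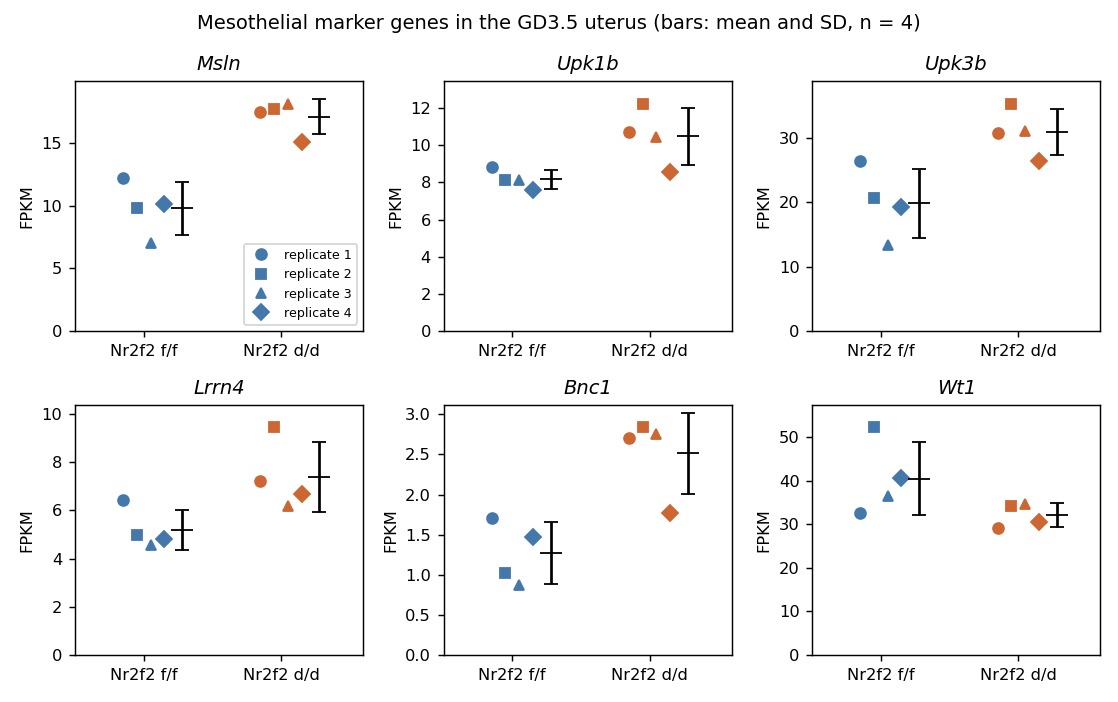
FPKM (vertical axes, from 0) of the 6 genes in the 4 control (Nr2f2 f/f) and 4 mutant (Nr2f2 d/d) libraries, with a marker shape for each replicate number and the mean and SD as black bars. The groups do not overlap for Msln, Upk3b and Bnc1, while Wt1 is the 1 gene whose mutant values lie toward the lower side.

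Bnc1 encodes basonuclin 1, a zinc finger protein of dividing basal keratinocytes, germ cells and mesothelium. Its locus is chr7:81966672-81992292, minus strand, and 2.11% of its exon bases are shared with a pseudogene on the opposite strand. Its level was 1.71, 1.02, 0.875 and 1.47 FPKM in the controls and 2.71, 2.84, 2.75 and 1.76 in the mutants. In the mutants, 3 libraries stood close together and replicate 4 stood apart, just above the highest control library. With means of 1.27 ± 0.389 and 2.51 ± 0.503 FPKM (SD, n = 4 each), Bnc1 had the largest ratio of means of the 6, at 1.98. On log2(FPKM + 0.5), Msln had the larger change, at 0.80. The log2 fold change of Bnc1 was 0.78 (95% interval 0.34 to 1.22), with an unadjusted p of 0.00341 and an adjusted p of 0.0726 from limma (exact permutation p = 0.0286). These values are near the 0.5 FPKM added before the log, and adding 0.1 instead gave a log2 fold change of 0.96 and adding 1 gave 0.64. Without mutant replicate 4 the log2 fold change was 0.91 (limma, adjusted p = 0.0524).

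Genes of stratified, keratinizing epithelium are given beside Bnc1 because that tissue also holds it. Krt5, the basal keratin, was at 0.0140, 0.00700, 0.0290 and 0 FPKM in the controls and at 4.81, 5.64, 4.86 and 0.322 in the mutants, so among the mutants the library with the least Bnc1 also had the least Krt5. The control values of Krt5 were too near 0 to be put in order. Krt14, the partner of Krt5, was at 0.0660 to 0.202 FPKM in the controls and at 1.01, 1.36, 0.922 and 0.256 in the mutants, with the lowest mutant value again in replicate 4. Dsg3, a desmosome gene of the same list, ran the other way, at 1.39, 0.749, 0.0900 and 0.0550 FPKM in the controls and 0.0780, 0.0950, 0.05 and 0.301 in the mutants, with replicate 4 the highest mutant. Trp63, the master factor of stratified epithelium, was at 0.183 to 0.308 FPKM in the controls and 0.244 to 0.384 in the mutants, and these ranges overlapped. Over the 6 squamous genes, 2 passed the filter and neither passed the adjustment, with an adjusted p of 0.0529 for Krt5 and 0.0960 for Krt13 from limma. Both reached the filter only through the mutants, where they are high, so these values are a description, as are those without mutant replicate 4 (limma, adjusted p = 6.36e-05 and 0.0337). Their summed level was 0.380 to 1.87 FPKM in the controls and 1.36 to 8.90 in the mutants. The part of squamous cells in the level of Bnc1 was not tested.

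Wt1 encodes the Wilms tumour zinc finger factor. Its locus is chr2:105126529-105173616, plus strand, with no overlapping gene in GENCODE vM21. Its level was 32.7, 52.2, 36.5 and 40.6 FPKM in the controls and 29.1, 34.3, 34.8 and 30.5 in the mutants. Here the control group was the wider, with replicate 2 at the top, and 2 mutant libraries lay below all control libraries. The means were 40.5 ± 8.46 and 32.2 ± 2.79 FPKM (SD, n = 4 each). The log2 fold change of -0.31 (95% interval -0.64 to 0.02) did not pass (limma, adjusted p = 0.257, exact permutation p = 0.0857). Without control replicate 2 it was -0.18, and without control replicate 1 it was -0.41.

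**Figure D2:**
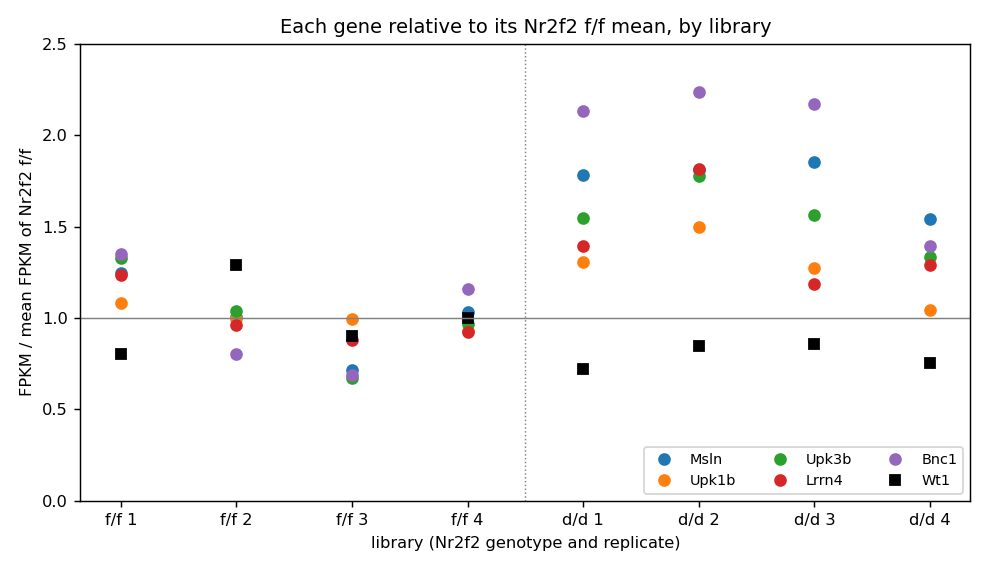
FPKM of each gene divided by its own control mean (vertical axis), for the 8 libraries (horizontal axis), with Wt1 as black squares. In the mutants the 5 other genes sit between 1.05 and 2.24 and Wt1 between 0.719 and 0.858.

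The 5 genes with higher means tended to be high or low in the same libraries. Control replicate 1 was the highest of its group for 5 of the 6 genes and the lowest for the sixth, Wt1. Control replicate 3 was the lowest for 4 genes, all but Upk1b and Wt1. In the mutants, replicate 2 was the highest for 4 genes and replicate 4 the lowest for 4, with Lrrn4 lowest in replicate 3 and Wt1 in replicate 1.

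**Figure D3:**
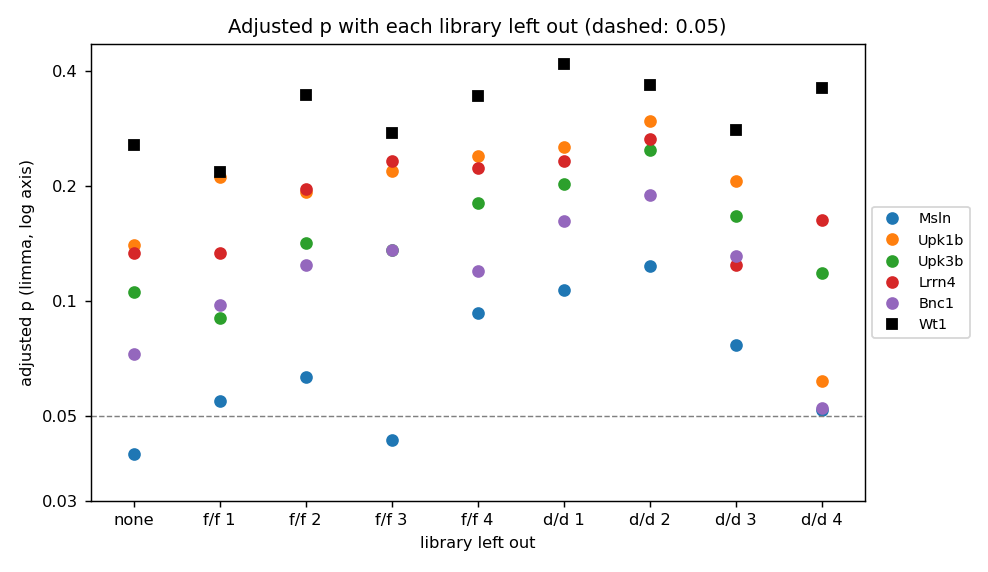
Adjusted p from limma (vertical axis, log scale) of the 6 genes with all libraries (none) and with each of the 8 left out in turn (horizontal axis), and 0.05 as the dashed line. Msln is below the line with all libraries and without control replicate 3, at 0.0398 and 0.0434, and no other gene falls below it in any of the 9 fits.

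Ratios within a library remove what a library's total adds to both genes. Among the 15 pairs of the 6 genes, the ratio of Msln to Upk3b varied least, from 0.462 to 0.526 in the controls and from 0.502 to 0.583 in the mutants, a coefficient of variation of 8.44% over the 8 libraries. These ranges overlapped (exact permutation p = 0.0857), and the level of Msln itself had a coefficient of variation of 21.8% within the controls. Of the 15 pairs, 6 had ratios that did not overlap between the groups, 4 with Wt1 and 2 without it. Of single genes, 15.4% of all tested did not overlap in either direction, and the share over other pairs of genes was not computed. Msln, Upk3b and Bnc1 were already apart in level, and Wt1 had the lower mean in the mutants, so their ratios to Wt1 are no separate result. The ratio of Msln to Wt1 was 0.373, 0.188, 0.191 and 0.249 in the controls and 0.599, 0.516, 0.521 and 0.494 in the mutants, and the groups were well apart. The same full separation held for the ratios of Upk1b, Upk3b and Bnc1 to Wt1 (exact permutation p = 0.0286 for each of the 4 ratios, two-sided, on the log scale). Without Wt1, the ratio of Msln to Upk1b was 0.860 to 1.38 in the controls and 1.45 to 1.76 in the mutants, and that of Upk1b to Bnc1 was 5.17 to 9.30 and 3.79 to 4.84 (exact permutation p = 0.0286 for each). Each of these 2 pairs holds Msln or Bnc1, already apart in level, so they are no separate result either. The ratio of Lrrn4 to Wt1 overlapped, at 0.0955 to 0.197 in the controls and 0.177 to 0.275 in the mutants (exact permutation p = 0.0571). The 15 ratios were examined after the levels of the genes were known, and the p-values were not adjusted.

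**Figure D4:**
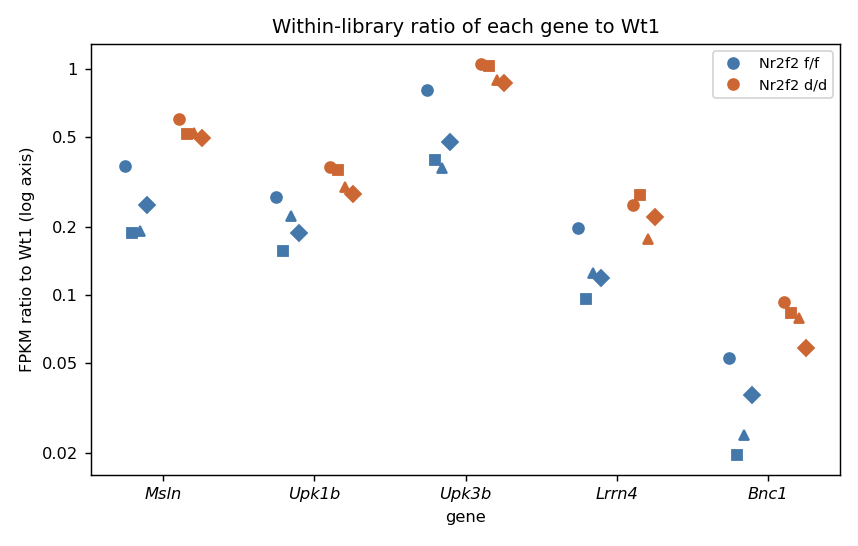
FPKM of Msln, Upk1b, Upk3b, Lrrn4 and Bnc1 divided by FPKM of Wt1 in the same library (vertical axis, log scale), with a marker shape for each replicate number. Mutant libraries lie above all control libraries for each gene but Lrrn4, where 1 mutant library falls within the control range.

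FPKM are per length, so levels can be set in order. In the controls the order was Wt1, Upk3b, Msln, Upk1b, Lrrn4 and Bnc1, which stood at the 90.2, 76.3, 54.7, 49.3, 35.4 and 11.0 percentile of mean FPKM among all genes tested. Msln and Upk1b overlapped there, with Msln above in 3 of 4 libraries, and each other pair of neighbours was apart in range. In the mutants the order of the means was the same, but Wt1 and Upk3b overlapped, with a ratio of means of 1.04 against 2.04 in the controls. Msln and Upk1b no longer overlapped, while Upk1b and Lrrn4 did.

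The 250 bases before the RefSeq start were read from RefSeq for the 3 genes found in its promoter table (GRCm38.p6, the assembly of mm10), Upk3b, Lrrn4 and Bnc1. They are shown because NR2F2 is a COUP-TF protein, and COUP-TF proteins bind the nuclear receptor half-site AGGTCA. Capitals mark matches on either strand to any of the motifs searched, which were the half-site AGGTCA, the TEAD factor motif GGAATG, the GC box GGGCGG, the WT1 and EGR zinc finger motif GCGTGGG and the TATA box TATAAA. The strands are those of the genes, and the windows are chr5:136038246-136038495 (plus strand) for Upk3b, chr2:132880863-132881112 (minus) for Lrrn4 and chr7:81992300-81992549 (minus) for Bnc1.
Upk3b: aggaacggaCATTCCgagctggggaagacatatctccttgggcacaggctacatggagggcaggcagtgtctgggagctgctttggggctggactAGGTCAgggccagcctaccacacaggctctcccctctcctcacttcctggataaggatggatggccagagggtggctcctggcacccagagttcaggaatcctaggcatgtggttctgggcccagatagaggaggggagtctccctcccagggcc
Lrrn4: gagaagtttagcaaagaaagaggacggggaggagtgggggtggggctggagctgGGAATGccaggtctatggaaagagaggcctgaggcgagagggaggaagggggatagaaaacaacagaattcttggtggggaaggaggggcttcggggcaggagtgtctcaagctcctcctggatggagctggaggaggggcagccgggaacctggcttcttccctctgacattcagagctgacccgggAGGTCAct
Bnc1: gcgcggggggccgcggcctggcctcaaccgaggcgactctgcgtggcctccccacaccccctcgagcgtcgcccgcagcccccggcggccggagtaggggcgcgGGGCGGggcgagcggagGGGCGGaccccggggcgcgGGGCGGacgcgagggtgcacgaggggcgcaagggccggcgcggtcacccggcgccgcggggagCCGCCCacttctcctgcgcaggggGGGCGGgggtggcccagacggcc
The half-site was found at 155 bases before the start of Upk3b and at 8 bases before that of Lrrn4. RefSeq places the start of Lrrn4 further downstream than GENCODE vM21 does, so this last site lies inside the Lrrn4 locus given above. The TEAD motif was found in both of these windows, 241 bases before the start of Upk3b on the opposite strand and 196 before that of Lrrn4. The window of Bnc1 held neither, and held 5 GC boxes in a sequence of 83.6% G and C, above 99.7% of all promoters. Of 27025 promoters, 13.8% held the half-site within the same length, 12.6% the TEAD motif, 32.9% the GC box, 4.2% the WT1 and EGR motif and 13% the TATA box. The last 2 motifs were in none of the 3 windows, which says only that these letters are not there. No matches overlapped one another, and binding was not measured here.

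Other genes that mark mesothelium were taken as a list of 13, of which 12 were in the table, 11 passed the filter, Prg4 was below it and Muc16 was not analysed here. Rspo1, Cldn15 and Lrrn4cl rose with an adjusted p under 0.05, and no gene of the list passed in the other direction, where 1.09% of all genes tested passed upward and 1.53% downward. In all, 9 had a log2 fold change above 0 and 2 below, with a median of 0.47. Rspo1, Cldn15, Lrrn4cl and Calb2 were higher without overlap between the groups, as were 5.49% of all genes tested, with 9.91% lower. Calb2 passed the filter only through the mutants, so these counts and the median are a description. The list was written with earlier results of these data known and is a description. With 1 library left out, its median log2 fold change was 0.36 to 0.59 and 0 to 2 of its genes passed the adjustment.

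Rspo1 encodes a secreted protein that strengthens WNT signals. It was at 7.85, 7.80, 6.67 and 7.71 FPKM in the controls and at 11.9, 14.1, 10.8 and 12.1 in the mutants, a log2 fold change of 0.67 (limma, adjusted p = 0.0189). Cldn15, a claudin of tight junctions, was at 11.5, 9.25, 8.01 and 10.1 FPKM in the controls and at 15.4, 15.5, 14.9 and 13.8 in the mutants, a log2 fold change of 0.60 (limma, adjusted p = 0.0323). Lrrn4cl, a small membrane protein gene named for its likeness to the end of LRRN4, was at 2.01, 2.29, 1.48 and 1.70 FPKM in the controls and at 3.39, 3.29, 2.85 and 3.15 in the mutants, a log2 fold change of 0.64 (limma, adjusted p = 0.0388). All 3 were higher in every mutant library than in any control library. The adjusted p of Rspo1 was 0.0547, 0.0519, 0.0609 and 0.0634 without control replicates 1 and 4 and mutant replicates 1 and 2, in that order, and under 0.05 in the other 4 fits. Cldn15 stayed under 0.05 only without control replicate 1 (0.0443) and mutant replicate 4 (0.0464), and was at 0.0512 to 0.106 in the other 6 fits. Lrrn4cl stayed under 0.05 only without control replicate 2 (0.0282), and was at 0.0533 to 0.123 in the other 7.

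Gpm6a and Nkain4, membrane protein genes of mesothelium and nerve, had log2 fold changes of 0.47 and 0.41 (adjusted p = 0.182 and 0.195 from limma). Both overlapped between the groups, with control replicate 1 high and replicate 3 low, the order seen for Msln and Upk3b. Calb2, which encodes calretinin, a calcium-binding protein used to identify mesothelium, had a wide spread. It was at 0.442, 0.250, 0.287 and 0.0680 FPKM in the controls and at 2.61, 2.78, 0.558 and 7.75 in the mutants, and its log2 fold change of 2.04 did not pass (limma, adjusted p = 0.0858, and 0.0315 without mutant replicate 3). Calb2 reached the filter only through the mutants, so its direction is fixed by the filter. Its highest library was mutant replicate 4, the lowest of that group for Msln, Upk1b, Upk3b and Bnc1. Aldh1a2, a retinoic acid synthesis gene of mesothelium and stroma, ran from 22.1 to 34.0 FPKM in the controls and from 23.3 to 230 in the mutants (limma, adjusted p = 0.283). Efemp1, Pkhd1l1 and Tbx18 had log2 fold changes of -0.07, -0.03 and 0.05.

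**Figure D5:**
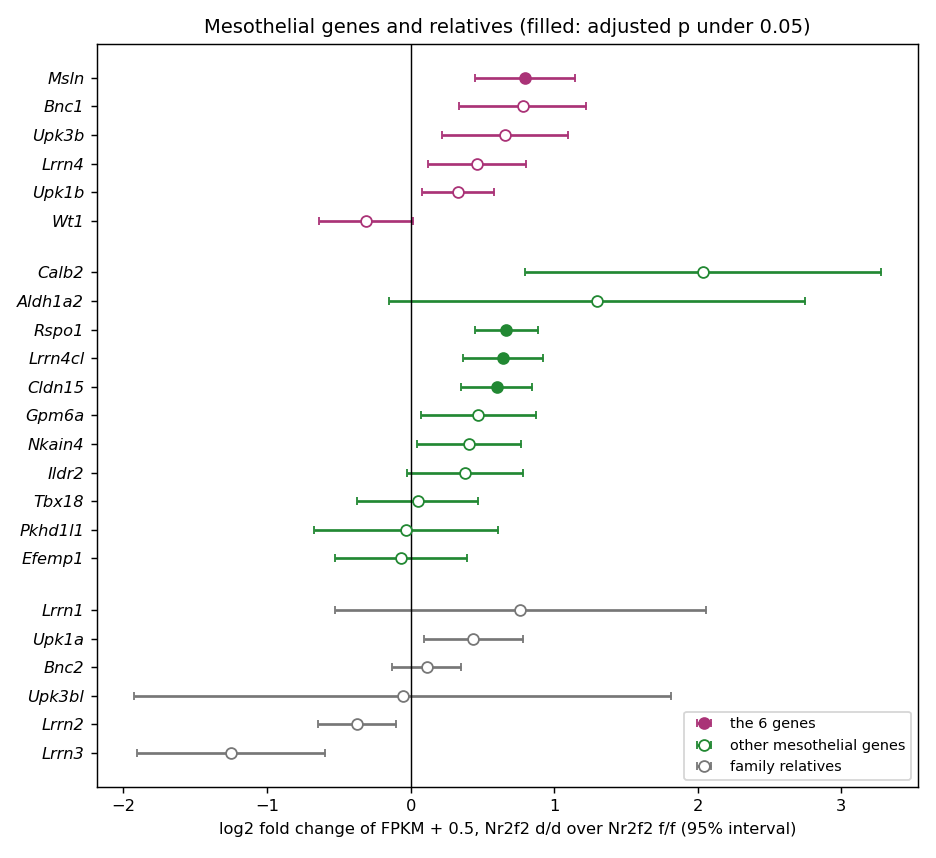
log2 fold change of FPKM + 0.5 in the mutants over controls (horizontal axis) with its 95% interval from limma, for the 6 genes, the other mesothelial genes tested and the tested family relatives. Filled points passed an adjusted p of 0.05 and are Msln, Rspo1, Lrrn4cl and Cldn15.

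Mesothelium shares keratins and junction genes with the uterine epithelium. Of 8 such genes, Krt8 rose, from 114 ± 6.31 to 192 ± 16.2 FPKM (SD, n = 4 each, limma adjusted p = 0.00829), and it was the 1 gene of the list that passed, where 1.09% of all genes tested passed upward and 1.53% downward. Krt19 was at 38.9 to 93.8 FPKM in the controls and 126 to 206 in the mutants (limma, adjusted p = 0.0559). Krt18, the partner of Krt8, had a log2 fold change of 0.06 (limma, adjusted p = 0.889), and Tjp1, a tight junction scaffold gene, of -0.70 (limma, adjusted p = 0.0982). How much of these levels is mesothelial was not tested.

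Family relatives of the 6 genes formed a list of 9, of which 6 passed the filter and 0 passed the adjustment in limma. At an unadjusted p under 0.05, 3 of the 6 did, Upk1a, Lrrn2 and Lrrn3, where 21.2% of all genes tested did. Upk1a, the bladder partner of Upk2, was at 0.559 to 0.811 FPKM in the controls and at 0.758 to 1.42 in the mutants (log2 fold change 0.44, adjusted p = 0.157 from limma). Lrrn3 was at 7.83, 7.17, 3.27 and 4.15 FPKM in the controls and at 2.27, 2.12, 1.22 and 2.30 in the mutants, opposite in direction to Lrrn4 (log2 fold change -1.25, adjusted p = 0.0596 from limma). Without control replicate 3, Lrrn3 passed, at an adjusted p of 0.0488 from limma. Lrrn2 had a log2 fold change of -0.37 (limma, adjusted p = 0.131). Bnc2, the relative of Bnc1 in fibroblasts, had 0.11 (limma, adjusted p = 0.572).

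Genes known as targets or partners of WT1 in kidney and gonad formed a list of 11, of which 10 passed the filter, 5 with a log2 fold change above 0 and 5 below, with a median of -0.04. None passed the adjustment in limma, and 3 of 10 had an unadjusted p under 0.05, which is near the 21.2% of all genes tested and no result about the list. These 3 are given for their values. Tcf21, a helix-loop-helix factor that is expressed beside WT1 in coelomic tissues, was the nearest, at 13.5 to 15.9 FPKM in the controls and 20.1 to 31.0 in the mutants (log2 fold change 0.68, adjusted p = 0.0509 from limma). Amhr2, the receptor of anti-Müllerian hormone, was at 0.662 to 1.01 FPKM in the controls and 1.103 to 1.48 in the mutants (limma, adjusted p = 0.121). Bcl2, a survival gene, had a log2 fold change of -0.30 (limma, adjusted p = 0.196). Nphs1, the nephrin gene of the kidney, was listed at 0 in 7 of 8 libraries.

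Markers of other tissues that could carry these genes were also measured. Of the bladder genes, Upk3a was listed at 0 in all 4 control libraries and at no more than 0.02 FPKM in the mutants, and Upk2 was at 0.0560 to 0.290 FPKM in the controls and 0.259 to 0.617 in the mutants, where 3 libraries lay above all controls. The 4 bladder genes summed to 0.832 to 1.44 FPKM in the controls and 1.54 to 2.45 in the mutants, which did not overlap. Each of the 4 genes alone overlapped between the groups, and the share of other gene sums that part was not computed. The part of bladder genes in the levels of Upk1b and Upk3b was not tested. Of 13 ovary genes, Fshr was listed at 0 in all libraries, and the list summed to 6.87 to 9.22 FPKM in the controls and 7.24 to 8.90 in the mutants, with Inha at -0.21, Star at 0.37 and Gdf9 at 0.18 in log2 fold change. Fat cell markers were highest in control replicate 3, where Adipoq was 0.718 FPKM and the 7 genes summed to 14.7, and this was the control library with the least Msln, Upk3b, Lrrn4 and Bnc1, but among the mutants replicate 3 had the highest sum, 8.11, with the most Msln and the least Lrrn4 of that group. The part of fat was not tested. Their sums ran from 1.87 to 14.7 FPKM in the controls and from 2.64 to 8.11 in the mutants. The 6 oviduct genes summed to 52.7 to 76.5 and 50.4 to 104 FPKM. Ovgp1, Tekt1 and Tppp3 had limma adjusted p-values of 0.831, 0.144 and 0.488, and with 1 library left out their log2 fold changes ran from -0.04 to 1.37, -0.47 to -0.32 and -0.27 to -0.08. Foxj1, below the filter, was at 0.12 to 0.184 FPKM in the controls and 0.261 to 2.21 in the mutants. It was thus higher without overlap, while Tekt1 was lower without overlap. Of all genes tested, 5.49% parted upward and 9.91% downward.

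Among the layers of the uterus, the 7 smooth muscle genes summed to 1287 to 1812 FPKM in the controls and 1033 to 2543 in the mutants, so the mutant range held the whole control range. Cnn1, Actg2 and Smtn had log2 fold changes of 0.38, 0.25 and 0.17, with adjusted p-values from limma of 0.449, 0.661 and 0.651. With 1 library left out, the log2 fold changes ran from 0.15 to 0.59, 0.0071 to 0.46 and 0.03 to 0.35. The 7 epithelial genes summed to 585 to 746 and 573 to 810.5 FPKM, and Cdh1, Cldn4 and Cldn7 had log2 fold changes of 0.30, -0.05 and 0.34. The 8 stromal genes summed to 1568 to 1803 FPKM in the controls and 2122 to 3780.04 in the mutants, without overlap, but the genes did not move together: 4 had a log2 fold change above 0 and 4 below. The largest parts of the difference in the sum lay in Col1a1, Col3a1 and Dcn, with Col1a1 at 1141 FPKM in mutant replicate 3. Vim, an intermediate filament gene, was at 380 ± 93.1 FPKM in the controls and 237 ± 44.3 in the mutants (SD, n = 4 each, limma adjusted p = 0.113), and Pdgfra, Hoxa10 and Hoxa11 had log2 fold changes of -0.20, -0.09 and -0.18. Of the list, Dcn, the proteoglycan decorin, rose by a log2 fold change of 0.79 (limma, adjusted p = 0.0192), beside 0.80 for Msln. It was at an adjusted p of 0.0656 and 0.0618 without control replicates 1 and 4, and of 0.0572 and 0.0661 without mutant replicates 1 and 2. The part of these layers in the levels of the 6 genes was not tested.

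The genes most like the 6 were found by Pearson's correlation, over the 8 libraries, of log2(FPKM + 0.5) with the mean of the standardized values of the 6. The 8 nearest were Xpnpep2 (0.981), Pcnx2 (0.976), Gpm6a (0.962), Tm4sf5 (0.947), Gabra4 (0.942), Flrt1 (0.940), Podn (0.937) and Tmem151a (0.935). Gpm6a is also on the list of mesothelial genes above. After each group mean was subtracted, Pcnx2 (0.985), Zcchc8 (0.976), Mir7014 (0.963), 2810002D19Rik (0.962), Wdr44 (0.956), Xpnpep2 (0.947), Gpm6a (0.946) and Trp53tg5 (0.917) came nearest, so Xpnpep2, Pcnx2 and Gpm6a were on both. Xpnpep2, a membrane-bound aminopeptidase gene, was at 3.03 ± 0.574 FPKM in the controls and 5.12 ± 0.962 in the mutants (SD, n = 4 each, limma adjusted p = 0.0720). The first ranking includes the difference between the groups, which favours genes such as Gabra4 and Flrt1 that reached the filter only through the mutants, and both are given as a description over 8 libraries.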

How the data were processed

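RNA from whole uteri of 4 Nr2f2 f/f and 4 Nr2f2 d/d samples had been sequenced by the authors, who deposited 1 table of FPKM for 24963 genes. The submitters' processing notes name cutadapt 1.12, STAR 2.5.2b, Subread with featureCounts 1.5.0-p1, Cufflinks 2.0.2 and the mm10 build. The gene annotation and the strand setting are not given in the sources used here. All columns matched a sample, and 0 were left unmapped.

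The study tested counts with a count model. FPKM are not counts, so limma 3.58.1 (R 4.3.3, lmFit and eBayes with trend) was run on log2(FPKM + 0.5) for genes whose mean reached 0.5 FPKM, with Benjamini-Hochberg adjustment over all 14323. Fold changes on this scale understate those of low genes. Single genes were also compared by two-sided exact permutation of mean FPKM (scipy 1.17.1, Python 3.11.15). The script was tested on simulated data. Library totals were recovered from microRNA genes of 1 exon and at most 400 bases, of whose values 97.57 to 98.71% came to whole fragments within 0.1. Fragment numbers of the 6 genes used exon lengths of GENCODE vM21 and are estimates.

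The genes, the lists and the rules were chosen with earlier results of these data known. Named were the 6 genes, Nr2f2, the genes of each list with an adjusted p under 0.05 or else the 3 with the smallest p, markers listed at 0 and the 8 most alike genes. Other members of the lists were named after their values were seen. Alternatives were other added constants, filters, scalings, variance models, a replicate block and each library left out.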

Additional observations from a re-analysis of the deposited data

Results flagged for a closer look

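In 14 groups of 4 libraries (the 6 genes and Nr2f2 in each genotype), the gap of the highest or lowest library to its neighbour was compared with the group's range, and a gap over 0.829 of the range was noted. Chance gives about 1 such group in 20. Bnc1 was lowest in Nr2f2 d/d replicate 4, at 1.76 FPKM, with a gap of 0.877 of the range. Nr2f2 was lowest in Nr2f2 d/d replicate 3, at 6.90 FPKM, with a gap of 0.888 of the range.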

How the results depend on the processing

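The direction of each of the 6 genes and of Nr2f2 held under every alternative run. Msln lost its call without a filter on low values (log2 fold change 0.80, adjusted p = 0.0536 from limma). Title and description numbers of the samples differ. Deviations from the group means had correlations of -0.204 to 0.149 between same-numbered samples. So few libraries cannot show whether equal numbers mark a pairing. With a replicate block by title number, Msln had 0.80 (adjusted p = 0.144), Nr2f2 -1.39 (limma, adjusted p = 0.0714), and 1 gene of all passed. With a replicate block by description number, Msln had 0.78, Nr2f2 -1.32 (limma, adjusted p = 0.0619), and 0 genes passed. Description number 2 marks only control replicate 2 and number 4 only mutant replicate 3, so these libraries did not inform that contrast. Either block also leaves less from which to estimate the spread. The cause of the lost calls was not tested. Median-ratio scaling gave 192 genes higher and 172 lower, against 156 and 219. The mean difference of Upk1b was 2.48 FPKM under median-ratio scaling and 2.56 under quantile normalization (exact permutation p = 0.0286 each), and the groups then no longer overlapped. Its adjusted p from limma was 0.110 and 0.105 there.

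Without 1 library, the log2 fold change of Msln was 0.65 to 0.91, and 42 to 347 genes passed the adjusted threshold (62 without Nr2f2 f/f replicate 1, 210 without 3 and 98 without 4; 56 without Nr2f2 d/d replicate 1 and 42 without 2). Mean differences in FPKM were 6.38 to 8.11 for Msln, 8.85 to 13.2 for Upk3b, 1.116 to 1.4975 for Bnc1 and -15.9 to -14.5 for Nr2f2, where 3 against 4 cannot give an exact permutation p below 0.0571. Counts by list were added after seeing the data. Of the 6 genes, 0 to 1 passed the adjusted threshold, and of the other mesothelial genes 0 to 2 did. The threshold of the study's methods was met by 2 to 4 of the 6 genes (3 with all libraries). It was met by 4 to 7 of the other mesothelial genes, beside 1080 to 1444 of all 14323 genes. With all libraries, 4 of the other mesothelial genes met it, Calb2 included, which passed the filter only through Nr2f2 d/d.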
